A study of Mus musculus with 10 samples.

Results

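Receptors for serotonin, noradrenaline and adrenaline, dopamine, histamine and acetylcholine were examined in somatosensory cortex of mice with a conditional knockout (cKO) of the histone H3 lysine methyltransferase gene Nsd1. Members were genes whose symbols begin with receptor prefixes of these 5 transmitter systems (Htr, Adra, Adrb, Drd, Hrh, Chrm, Chrna, Chrnb and Chrng). The nicotinic subunit genes Chrnd and Chrne fell outside this rule and were not examined. They numbered 51 of the 23283 gene names and joined loci in the 2.5-month table and 51 of the 54427 names in the 3-month table. They comprised 14 serotonin, 9 adrenergic, 5 dopamine, 4 histamine, 5 muscarinic and 14 nicotinic receptor genes. By the main signalling route of the product, 10 coupled to Gq, 16 to Gi, 9 to Gs and 16 formed ion channels.

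The first model comprised 3 Nsd1Nex-cKO samples (Nex_cKO) and 3 controls (Nex_Ctrl) at 2.5 months, and the second comprised 2 Nsd1Camk2a-cKO samples (Camk2a_cKO) and 2 controls (Camk2a_Ctrl) at 3 months. Replicates 1 and 2 of Nex_Ctrl and both Camk2a_Ctrl samples were Nsd1fl/+, and replicate 3 of Nex_Ctrl was Nsd1fl/fl. Nex is an older name of Neurod6, whose promoter is active in young postmitotic excitatory neurons of the forebrain, and the Camk2a promoter becomes active in the same class of neurons later. Other cell types of the cortex would therefore keep Nsd1 in both models, while RNA was taken from the whole dissected tissue. Neither Cre status of the controls nor the number of mice behind the replicates is stated in the labels, so p-values measure the spread between these samples.

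Monoamine and acetylcholine fibres reach the cortex from small nuclei in the brainstem and basal forebrain, and their receptors set how strongly cortical neurons respond to other inputs. Gq-coupled receptors activate phospholipase C and generally excite the cell, Gi-coupled receptors lower cyclic AMP and generally damp it, and Gs-coupled receptors raise cyclic AMP. The nicotinic receptors and the serotonin receptor built from Htr3a are ion channels that open directly on binding the transmitter. In pyramidal neurons of the cortex, Htr2a and Chrm1 are among the best studied of these genes.

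Values are FPKM, which are scaled to gene length and library size, and a change is the difference of mean log2(FPKM + 1), cKO minus Ctrl. Between 12177 and 12519 names reached an FPKM of 1 in the 2.5-month libraries. The depth of those libraries is unknown, while the 3-month libraries held 16901717 to 20074933 recovered reads. Nex_cKO replicate 3 stood apart from the other 2.5-month libraries: Ddx3y, a Y-linked gene, stood at 16.2 FPKM there and at 0 in the other 5, and rows without a gene name took 41.6% of its summed FPKM, against 2.33% to 19.4% in the other 5. Nsd1 was listed in the 2.5-month table only as a joined locus with Prelid1, at 91.0, 118.1 and 105.6 FPKM in Nex_cKO and 129.9, 125.1 and 141.4 FPKM in Nex_Ctrl (log2 change -0.34, limma adjusted p = 0.0863). In the 3-month table Nsd1 stood at 4.31 and 4.99 FPKM in Camk2a_cKO and 5.61 and 8.87 FPKM in Camk2a_Ctrl (log2 change -0.52, limma adjusted p = 0.685). The deleted exons cannot be read from gene-level values. Neurod6, the gene behind the first driver, fell in the Nex model (log2 change -0.80, limma adjusted p = 0.00719), and Camk2a did not pass the test there (log2 change -0.13, limma adjusted p = 0.459).

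Promoter sequences from RefSeq (GRCm38.p6) are printed for pairs of receptor genes that changed in the same direction in the Nex model. Each window runs from 250 bases before to 50 bases after the annotated start, 5′ to 3′ on the gene's strand, with every CG dinucleotide in capitals. The first pair, Htr2a (chr14:74640624-74640923, plus strand) and Htr2c (chrX:146962263-146962562, plus strand), belongs to serotonin receptor genes that rose.
Htr2a: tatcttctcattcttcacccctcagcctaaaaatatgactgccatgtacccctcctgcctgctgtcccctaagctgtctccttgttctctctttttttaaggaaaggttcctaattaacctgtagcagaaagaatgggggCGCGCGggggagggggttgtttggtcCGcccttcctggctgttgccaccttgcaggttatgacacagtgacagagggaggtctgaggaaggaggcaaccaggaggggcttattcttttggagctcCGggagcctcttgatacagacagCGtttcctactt
Htr2c: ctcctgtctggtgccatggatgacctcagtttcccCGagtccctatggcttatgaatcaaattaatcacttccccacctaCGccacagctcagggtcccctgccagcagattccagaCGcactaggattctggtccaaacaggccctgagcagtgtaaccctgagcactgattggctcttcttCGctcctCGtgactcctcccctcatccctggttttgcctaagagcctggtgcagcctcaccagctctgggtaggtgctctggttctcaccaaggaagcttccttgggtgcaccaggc
The second pair, Adra2a (chr19:54045009-54045308, plus strand) and Chrm4 (chr2:91921939-91922238, plus strand), belongs to Gi-coupled receptor genes that fell.
Adra2a: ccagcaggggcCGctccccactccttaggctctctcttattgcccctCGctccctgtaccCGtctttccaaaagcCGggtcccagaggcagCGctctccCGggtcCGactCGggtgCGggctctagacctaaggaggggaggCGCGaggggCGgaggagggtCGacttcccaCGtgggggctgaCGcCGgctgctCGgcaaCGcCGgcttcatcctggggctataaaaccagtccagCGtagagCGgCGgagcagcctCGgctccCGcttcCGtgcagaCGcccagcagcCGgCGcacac
Chrm4: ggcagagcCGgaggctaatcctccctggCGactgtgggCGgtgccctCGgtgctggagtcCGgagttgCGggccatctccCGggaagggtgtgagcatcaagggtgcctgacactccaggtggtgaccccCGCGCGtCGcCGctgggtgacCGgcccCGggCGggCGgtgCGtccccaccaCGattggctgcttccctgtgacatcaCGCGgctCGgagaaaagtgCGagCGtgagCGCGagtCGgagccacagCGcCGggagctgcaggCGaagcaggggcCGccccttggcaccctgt
The windows of the genes that rose held 6 CG dinucleotides in Htr2a and 5 in Htr2c, and those of the genes that fell held 28 in Adra2a and 30 in Chrm4. The median was 14 over the 48 windows of the 39 members with an entry and 7 over all 32851 promoters in the table, with quartiles of 3 and 20. Adra1b, which also fell, had a window with 3 and another with 28, so the CG count did not order the 5 genes by direction. The letters TATAAA, searched on both strands, occurred in the Adra2a and Chrnb1 windows and in 13.6% of all promoters. No entry was held for Chrnb3. The Chrm4 window lies before the gene start at 91927249 given with its values below, so the annotated starts of Chrm4 differ.

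Expression of the receptor genes spanned a wide range, and a few of them made up most of the signal. In Nex_Ctrl, 9 of the 51 members averaged at least 10 FPKM and 29 at least 1, and 20 stayed under 1 in all 6 libraries of 2.5 months. The highest was Hrh3, a histamine receptor that acts as an autoreceptor and heteroreceptor, with means of 43.2 ± 2.67 FPKM in Nex_cKO and 35.8 ± 1.71 FPKM in Nex_Ctrl (SD, n = 3 each). It was followed by Adra1d, a Gq-coupled adrenergic receptor (33.9 ± 3.14 FPKM in Nex_cKO and 31.8 ± 3.18 FPKM in Nex_Ctrl), and by Chrm1, the main Gq-coupled muscarinic receptor of cortex (30.8 ± 1.70 FPKM in Nex_cKO and 30.1 ± 1.18 FPKM in Nex_Ctrl). Adrb1, the main beta-adrenergic receptor of cortical neurons, averaged 26.2 ± 3.20 FPKM in Nex_cKO and 27.2 ± 2.81 FPKM in Nex_Ctrl. These 4 genes were also the most abundant members in the 3-month controls. Among nicotinic subunits the leading pair was Chrnb2 and Chrna4, which assemble into the main nicotinic receptor of the brain: Chrnb2, listed as a joined locus with 4632404H12Rik, averaged 12.8 FPKM in Nex_cKO and 13.1 FPKM in Nex_Ctrl, and Chrna4 averaged 8.18 FPKM in Nex_cKO and 9.36 FPKM in Nex_Ctrl. Dopamine receptors were low, led by Drd1 with 2.05 FPKM in Nex_cKO and 2.23 FPKM in Nex_Ctrl, then Drd4 with 0.765 FPKM in Nex_cKO and 0.496 FPKM in Nex_Ctrl. Chrna9, known from inner ear hair cells, and Chrng, the subunit of fetal muscle, were listed at 0 in every library of both tables.

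**Figure D1:**
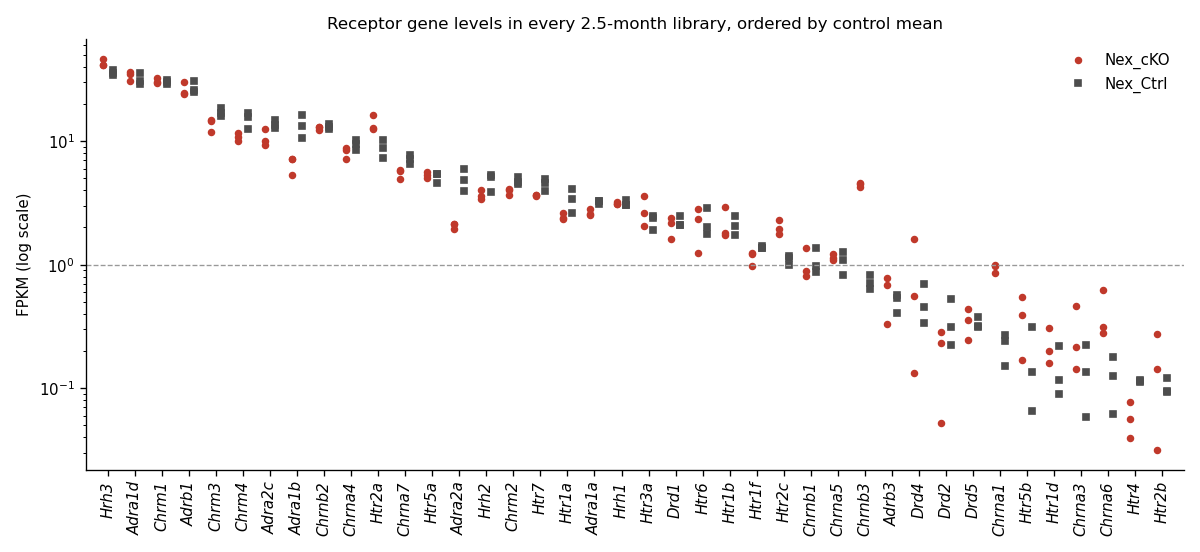
FPKM of receptor genes in each 2.5-month library on a log scale, ordered by the mean of Nex_Ctrl, with Nex_cKO as red circles and Nex_Ctrl as grey squares. The dashed line marks FPKM 1, members with a Nex_Ctrl mean under 0.1 FPKM are not drawn, and Chrnb3 is the gene whose red circles (4.28 to 4.55 FPKM) stand farthest above its grey squares (0.639 to 0.828 FPKM).

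In the Nex model 29 members passed the expression filter (FPKM of at least 1 in at least 3 libraries), and 6 of them changed at a limma adjusted p under 0.05. Chrnb3, Htr2a and Htr2c rose, 3 of 29 or 10.3%, against 4.47% of all 12528 genes tested. Chrnb3 reached the filter only through the Nex_cKO libraries, so its place among the 29 was set by its change, and it also passed when every gene above 0 was tested (limma adjusted p = 0.000186). Adra2a, Adra1b and Chrm4 fell, again 3 of 29 or 10.3%, against 4.06% of all genes tested. The groups did not overlap and lay higher in Nex_cKO for 4 members (13.8%, against 11.5% of all genes tested), and lay lower for 11 members (37.9%, against 18.9%). At an unadjusted p under 0.05, 4 lay higher (13.8%, against 8.88%) and 10 lay lower (34.5%, against 14.6%). The median change of the 29 was -0.09 on the log2 scale, against -0.04 for all genes tested. Rescaling each library by its median ratio gave 4 higher and 2 lower, because Hrh3 passed (limma adjusted p = 0.0418) and Chrm4 did not (0.0758). Without Nex_Ctrl replicate 1, and likewise without Nex_Ctrl replicate 3, 1 member was called higher, Chrnb3. In bulk tissue, fewer cells of a type and less RNA per cell cannot be told apart.

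**Figure D2:**
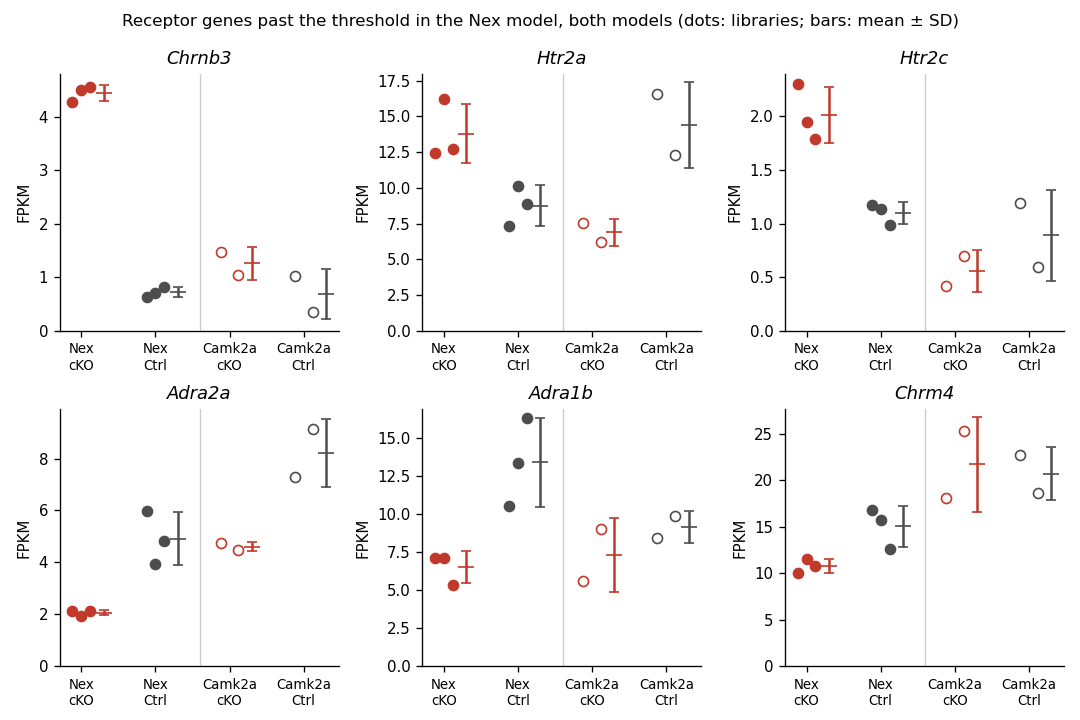
FPKM of the 6 receptor genes past the threshold in the Nex model, in every library of both models, with cKO left of Ctrl in each and bars for mean ± SD (n = 3 each in the Nex model, n = 2 each in the Camk2a model). In the Nex model the groups do not overlap for any of the 6, and Htr2a lies higher in Nex_cKO than in Nex_Ctrl but lower in Camk2a_cKO than in Camk2a_Ctrl.

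Among the ion channel genes, Chrnb3 changed most. Chrnb3 encodes a nicotinic receptor subunit best known from midbrain dopamine neurons and the habenula, where it assembles with the product of Chrna6. It stood at 4.28, 4.50 and 4.55 FPKM in Nex_cKO and at 0.639, 0.714 and 0.828 FPKM in Nex_Ctrl. All cKO libraries lay above 4 FPKM and all control libraries below 1, with no overlap. The means were 4.44 ± 0.146 FPKM in Nex_cKO and 0.727 ± 0.0948 FPKM in Nex_Ctrl (SD, n = 3 each), a ratio of 6.11. The log2 change was 1.66 (SE 0.10, limma adjusted p = 2.93e-05), and it ranged from 1.52 to 2.46 over the settings in which the gene was tested, past the threshold in each. Relative to Chrna5 at 1.14 FPKM and Chrna4 at 8.18 FPKM in Nex_cKO, Chrnb3 at 4.44 FPKM became an intermediate nicotinic subunit by level, whereas in Nex_Ctrl it lay below Chrna5 (0.727 FPKM for Chrnb3 and 1.06 FPKM for Chrna5).

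Chrnb3 lies on chromosome 8 (27368711 to 27399730, GRCm38, plus strand), and Chrna6 lies 3482 bases beyond its end on the opposite strand. Chrna6, which also marks a deep population of layer 5 pyramidal neurons, stood at 0.629, 0.314 and 0.277 FPKM in Nex_cKO and 0.125, 0.180 and 0.0618 FPKM in Nex_Ctrl. The groups did not overlap, but Chrna6 lay under the filter and had a limma adjusted p of 0.116 when every gene was tested. Of 10 protein-coding neighbours within 300 kb of Chrnb3, 3 were tested and 1 passed. That gene was Eif4ebp1, a repressor of translation initiation, at 2.88, 3.71 and 3.66 FPKM in Nex_cKO and 1.76, 2.28 and 2.33 FPKM in Nex_Ctrl (log2 change 0.50, limma adjusted p = 0.0436). Got1l1, 144883 bases away and not tested, stood at 1.24, 0.986 and 0.549 FPKM in Nex_cKO and 0, 0.103 and 0 FPKM in Nex_Ctrl. Adrb3, a beta-adrenergic receptor gene in the same interval, overlapped between the groups (0.780, 0.329 and 0.689 FPKM in Nex_cKO, and 0.564, 0.404 and 0.539 FPKM in Nex_Ctrl). The other neighbours with values either overlapped between groups or were listed at 0 throughout.

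**Figure D3:**
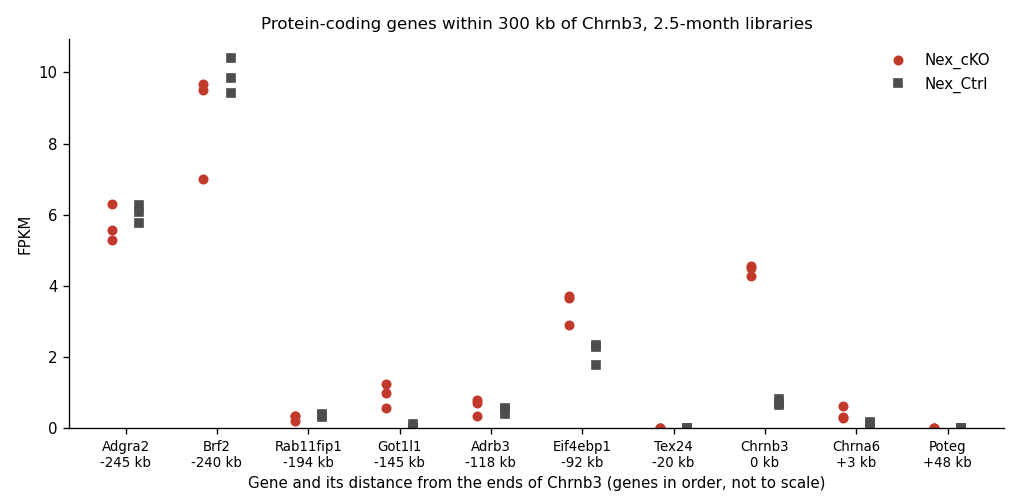
FPKM of Chrnb3 and the protein-coding genes with values within 300 kb of it, one point per 2.5-month library, in chromosomal order with the distance from Chrnb3 in kb under each name. Nex_cKO points (red) lie above Nex_Ctrl points (grey) for Chrnb3, Eif4ebp1, Got1l1 and Chrna6, and the points overlap for Adgra2, Brf2, Rab11fip1 and Adrb3.

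The other ion channel genes tested did not pass. Chrna7, the subunit of the calcium-permeable homomeric nicotinic receptor, came closest, at 5.81, 4.95 and 5.74 FPKM in Nex_cKO and 6.51, 7.69 and 7.22 FPKM in Nex_Ctrl. All 3 cKO libraries lay below all 3 controls (log2 change -0.32, limma adjusted p = 0.0818). Chrna4, Chrnb2, Chrna5 and Htr3a overlapped between groups, with log2 changes from -0.18 to 0.18.

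The Gq-coupled receptors held changes in both directions. Htr2a, the serotonin receptor through which classic psychedelics act, stood at 12.5, 16.2 and 12.7 FPKM in Nex_cKO and at 7.30, 10.1 and 8.84 FPKM in Nex_Ctrl. Every cKO library lay above every control library. The means were 13.8 ± 2.09 FPKM in Nex_cKO and 8.76 ± 1.42 FPKM in Nex_Ctrl (SD, n = 3 each), with a log2 change of 0.60 (SE 0.13, limma adjusted p = 0.0263). The call was lost without Nex_Ctrl replicate 1 (adjusted p = 0.0930 by limma), without Nex_Ctrl replicate 3 (0.0831) and without Nex_cKO replicate 2 (0.0504). Htr2a lies on chromosome 14 (74640840 to 74709494, GRCm38, plus strand), and neither of the 2 protein-coding neighbours within 300 kb passed the test.

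Htr2c, the closest relative of Htr2a and an abundant receptor of the choroid plexus, stood at 2.30, 1.95 and 1.79 FPKM in Nex_cKO and at 1.18, 1.13 and 0.986 FPKM in Nex_Ctrl. The groups did not overlap, and the means were 2.01 ± 0.262 FPKM in Nex_cKO and 1.10 ± 0.0991 FPKM in Nex_Ctrl (SD, n = 3 each). The log2 change was 0.52 (SE 0.12, limma adjusted p = 0.0273). It missed the threshold without any single control library (limma adjusted p of 0.0797, 0.0891 and 0.116 without Nex_Ctrl replicates 1, 2 and 3), without Nex_cKO replicate 1 (0.107) and after quantile normalization (0.105). Htr2c is X-linked (146962513 to 147197277, GRCm38, plus strand), and without Nex_cKO replicate 3, the library with Y-linked expression, the log2 change was 0.57 (limma adjusted p = 0.0233). The summed level of 12 choroid plexus markers was also higher, at 5.76, 4.78 and 3.32 FPKM in Nex_cKO and 1.95, 1.93 and 2.05 FPKM in Nex_Ctrl, but the single markers went different ways. Ttr, Kl, Folr1 and Sostdc1 lay higher in Nex_cKO without overlap, Clic6 and Prlr lay lower without overlap, and the other 6 overlapped or were at 0. The single marker tested, Ttr, did not pass (limma adjusted p = 0.178). Of the 12, 9 lay under FPKM 1 in all 6 libraries, Otx2 was at 0 in all, and Ttr, the most abundant marker of that tissue, stood at 2.08, 1.23 and 1.10 FPKM in Nex_cKO and 0.768, 0.959 and 0.826 FPKM in Nex_Ctrl. The part of choroid plexus RNA in the Htr2c result was not tested. Htr2b, the remaining gene of that subfamily, averaged 0.150 FPKM in Nex_cKO and 0.103 FPKM in Nex_Ctrl and was not tested.

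Adra1b, a Gq-coupled receptor for noradrenaline, fell. It stood at 7.14, 7.15 and 5.34 FPKM in Nex_cKO and at 10.6, 13.4 and 16.4 FPKM in Nex_Ctrl, without overlap. The means were 6.54 ± 1.04 FPKM in Nex_cKO and 13.4 ± 2.91 FPKM in Nex_Ctrl (SD, n = 3 each), a ratio of 0.488, and the log2 change was -0.92 (SE 0.16, limma adjusted p = 0.00761). The call held in all 16 alternative settings, with log2 changes from -1.08 to -0.78. Its paralogues did not pass: Adra1d overlapped between groups with a log2 change of 0.09 (limma adjusted p = 0.617), and Adra1a lay lower without overlap at 2.65 FPKM in Nex_cKO and 3.21 FPKM in Nex_Ctrl (log2 change -0.21, limma adjusted p = 0.236). Among the other Gq-coupled genes, Chrm3 stood at 14.9, 11.9 and 14.6 FPKM in Nex_cKO and 15.9, 16.8 and 18.6 FPKM in Nex_Ctrl (log2 change -0.29, limma adjusted p = 0.123). With its repeat entry summed in, Chrm3 had a log2 change of -0.23. Chrm1 and the histamine receptor gene Hrh1 overlapped between groups, with log2 changes of 0.03 and -0.004. A repeat entry of Hrh1 also overlapped but had a lower mean in Nex_cKO (1.51, 2.29 and 1.08 FPKM in Nex_cKO and 3.04, 1.82 and 2.49 FPKM in Nex_Ctrl).

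The Gi-coupled receptors included the adrenergic gene with the lowest ratio. Adra2a, the autoreceptor and postsynaptic receptor targeted by clonidine and guanfacine, stood at 2.12, 1.94 and 2.13 FPKM in Nex_cKO and at 5.96, 3.94 and 4.83 FPKM in Nex_Ctrl. The highest cKO library lay below the lowest control library. The means were 2.06 ± 0.108 FPKM in Nex_cKO and 4.91 ± 1.01 FPKM in Nex_Ctrl (SD, n = 3 each), a ratio of 0.420, with a log2 change of -0.94 (SE 0.13, limma adjusted p = 0.00287). It passed in each of the settings in which it was tested, with log2 changes from -1.20 to -0.81. A repeat entry of the same name, at 0.347, 0.449 and 0.468 FPKM in Nex_cKO and 0.568, 1.17 and 0.372 FPKM in Nex_Ctrl, overlapped between groups, and summing both entries gave a log2 change of -0.92. Adra2a lies on chromosome 19 (54045182 to 54048982, GRCm38, plus strand), where 1 of 4 tested neighbours within 300 kb passed, Rbm20, in the other direction (1.93 FPKM in Nex_cKO and 0.749 FPKM in Nex_Ctrl, limma adjusted p = 0.0125).

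Chrm4, a muscarinic receptor that inhibits cyclic AMP formation, stood at 10.1, 11.6 and 10.8 FPKM in Nex_cKO and at 16.8, 15.8 and 12.6 FPKM in Nex_Ctrl. The groups did not overlap, and Nex_Ctrl replicate 3 came closest to the cKO libraries. The means were 10.8 ± 0.763 FPKM in Nex_cKO and 15.1 ± 2.22 FPKM in Nex_Ctrl (SD, n = 3 each), and the log2 change was -0.44 (SE 0.11, limma adjusted p = 0.0459). This was the call nearest the threshold. It was lost without Nex_Ctrl replicate 1 (limma adjusted p = 0.164), Nex_Ctrl replicate 2 (0.150), Nex_cKO replicate 1 (0.145) or Nex_cKO replicate 3 (0.0671), with another scaling or filter (0.0546 to 0.0815) and without the intensity trend (0.0619). Chrm4 lies on chromosome 2 (91927249 to 91928688, GRCm38, plus strand). Dgkz, a diacylglycerol kinase gene 4136 bases away, also fell, with means of 149.3 FPKM in Nex_cKO and 185.3 FPKM in Nex_Ctrl (limma adjusted p = 0.0445). Mdk, which lies between them, did not pass (7.74 FPKM in Nex_cKO and 7.63 FPKM in Nex_Ctrl).

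Hrh3 was the Gi-coupled gene just outside the threshold, and it lay higher. It stood at 41.7, 41.6 and 46.3 FPKM in Nex_cKO and 37.4, 35.8 and 34.0 FPKM in Nex_Ctrl, without overlap (log2 change 0.26, limma adjusted p = 0.0636). Adra2c, the second cortical receptor of the Adra2 group, lay lower at 9.36, 12.6 and 10.1 FPKM in Nex_cKO and 14.7, 12.9 and 13.5 FPKM in Nex_Ctrl (log2 change -0.34, limma adjusted p = 0.103). Leaving out Nex_cKO replicate 2 brought Adra2c past the threshold (0.0214). Htr1a, the inhibitory serotonin receptor targeted by buspirone, averaged 2.45 FPKM in Nex_cKO and 3.38 FPKM in Nex_Ctrl (limma adjusted p = 0.180), and Chrm2 averaged 3.94 FPKM in Nex_cKO and 4.75 FPKM in Nex_Ctrl (limma adjusted p = 0.198). Of the 9 Gi-coupled genes tested, 6 (66.7%) had a negative change, against 59.5% of all genes tested, and the median change was -0.22. The same 6 lay lower without overlap, against 18.9% of all genes tested. Htr5a and Htr1b overlapped between groups.

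No Gs-coupled receptor passed the test. With the entry of highest mean used for each name, all 6 tested had a negative log2 change, from -0.29 to -0.05. The median was -0.12, and 5 of 6 changes were negative after quantile normalization. Over all genes tested, 59.5% of changes were negative. Of the 6, 2 (Hrh2 and Htr7) had an unadjusted limma p under 0.05, and 14.6% of all genes tested lay lower at that level. Hrh2, a histamine receptor, had means of 3.68 FPKM in Nex_cKO and 4.75 FPKM in Nex_Ctrl and overlapped between groups. With its repeat entry summed in, Hrh2 had an unadjusted limma p of 0.131. Htr7 stood at 3.67, 3.68 and 3.58 FPKM in Nex_cKO and 3.98, 4.96 and 4.56 FPKM in Nex_Ctrl, without overlap (log2 change -0.24, limma adjusted p = 0.187). Adrb1, Drd1 and Htr6 overlapped between groups. A repeat entry of Htr6 stood at 2.085, 2.67 and 2.58 FPKM in Nex_cKO and 1.27, 1.78 and 2.13 FPKM in Nex_Ctrl. Its mean was higher in Nex_cKO, so the sign of the Htr6 change depended on the entry used.

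**Figure D4:**
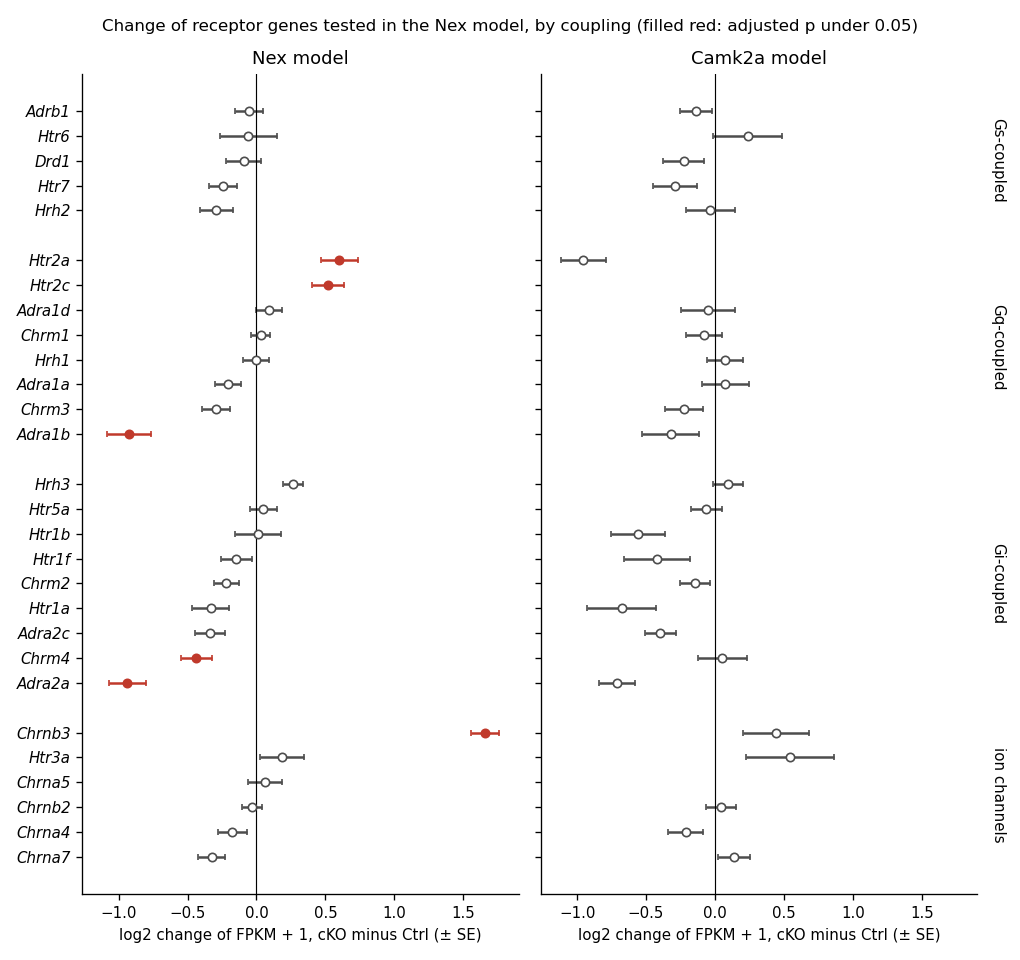
Log2 change of FPKM + 1, cKO minus Ctrl, with its standard error for 28 of the 29 receptor genes tested in the Nex model, grouped by signalling route, in the Nex model (left) and the Camk2a model (right). Filled red points passed an adjusted p of 0.05, which 6 members did in the Nex model and none did in the Camk2a model, and a gene with no point on the right was not tested there.

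The families moved unevenly as sums. The 9 adrenergic genes summed to 82.0, 86.3 and 82.4 FPKM in Nex_cKO and 97.6, 89.7 and 100.5 FPKM in Nex_Ctrl, and the 5 muscarinic genes to 61.3, 56.9 and 59.8 FPKM in Nex_cKO and 67.1, 68.6 and 65.5 FPKM in Nex_Ctrl. Both sums lay lower in every cKO library. The 4 histamine receptor genes summed higher, to 48.3, 48.7 and 53.0 FPKM in Nex_cKO and 45.6, 44.2 and 41.3 FPKM in Nex_Ctrl, which was mostly Hrh3. The sums of the 14 serotonin and 14 nicotinic receptor genes overlapped between groups. After rescaling by median ratio the serotonin sum lay higher without overlap (36.95, 40.0 and 33.2 FPKM in Nex_cKO and 28.0, 32.5 and 31.7 FPKM in Nex_Ctrl). Sums after quantile normalization covered only the members tested. There the serotonin sum overlapped (34.97, 38.5 and 31.1 FPKM in Nex_cKO and 28.7, 33.0 and 32.5 FPKM in Nex_Ctrl). The order of the adrenergic, muscarinic and histamine sums was the same under both scalings. Per family, 2 of 7 adrenergic, 1 of 4 muscarinic, 1 of 5 nicotinic and 2 of 9 serotonin genes tested passed. None of the 3 histamine genes or the single dopamine gene tested did. Over all genes tested, 4.47% were called higher and 4.06% lower, and the families are too small to be ranked by these counts.

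The 22 members that were not tested in the Nex model were low, reaching at most 1.61 FPKM (Drd4 in Nex_cKO replicate 2). Of these, Chrna1 and Chrna6 lay higher and Htr4 lay lower in Nex_cKO without overlap. Chrna1, the alpha subunit of the muscle nicotinic receptor, stood at 0.849, 0.999 and 0.977 FPKM in Nex_cKO and 0.267, 0.153 and 0.240 FPKM in Nex_Ctrl. When every gene above 0 was tested, it passed with a log2 change of 0.67 (limma adjusted p = 0.00162). In that test 4 of 48 members were called higher, Chrna1 among them, against 4.28% of all genes. A repeat entry of the same name overlapped between groups (0, 0.242 and 0.0993 FPKM in Nex_cKO and 0.108, 0.623 and 0.371 FPKM in Nex_Ctrl). Htr4 stood at 0.0777, 0.0392 and 0.0566 FPKM in Nex_cKO and 0.117, 0.111 and 0.113 FPKM in Nex_Ctrl. The remaining untested members overlapped between groups or were at 0.

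Genes that make, remove and relay these transmitters were read from lists of the pathway. For the counts of these lists and those downstream, 4.47% of all genes tested in the Nex model were called higher and 4.06% lower. Most cell bodies that make these transmitters lie outside the cortex. All 4 genes for acetylcholine and histamine synthesis and transport (Chat, Slc5a7, Slc18a3 and Hdc) lay under 1 FPKM, and 6 of 8 catecholamine genes did too. The catecholamine list had 1 higher call among 2 tested, the joined locus of Pnmt and Tcap at 24.7, 26.4 and 26.8 FPKM in Nex_cKO and 7.83, 5.29 and 7.63 FPKM in Nex_Ctrl (log2 change 1.78, limma adjusted p = 6.57e-05). Pnmt makes adrenaline from noradrenaline and Tcap is a sarcomere protein gene, and their shares of the joined value cannot be separated. None of the 2 serotonin synthesis and transport genes or the 6 breakdown genes tested passed, among them Maoa and Maob, and 0 of these had an unadjusted p under 0.05.

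Downstream of the receptors, 0 of 9 G alpha genes passed in limma (1, Gnal, at an unadjusted p under 0.05), with a median change of 0.01, and 0 of 3 phospholipase C beta genes did (0 at an unadjusted p under 0.05), with a median of -0.15. Among 7 adenylyl cyclase genes tested, Adcy2 fell, at 40.4, 40.1 and 41.0 FPKM in Nex_cKO and 51.3, 50.4 and 51.1 FPKM in Nex_Ctrl (log2 change -0.32, limma adjusted p = 0.0122). The replicates of Adcy2 differed by under 1 FPKM within each group. Among 19 receptor kinase, arrestin and RGS genes, Rgs2 and Rgs14 rose and none fell. Rgs2, which shortens Gq signalling, averaged 19.4 FPKM in Nex_cKO and 13.4 FPKM in Nex_Ctrl (log2 change 0.49, limma adjusted p = 0.0218). Rgs14, a Gi-directed RGS protein gene enriched in hippocampal area CA2, averaged 22.3 FPKM in Nex_cKO and 15.2 FPKM in Nex_Ctrl (log2 change 0.52, limma adjusted p = 0.00291). Among 8 genes for nicotinic receptor chaperones and modulators, Lynx1 and Ly6e fell and none rose, with a median change of -0.22. Lynx1, a membrane-anchored brake on nicotinic receptors, stood at 125.4, 133.4 and 107.6 FPKM in Nex_cKO and 151.5, 159.2 and 160.7 FPKM in Nex_Ctrl (log2 change -0.37, limma adjusted p = 0.0440). Ly6e averaged 92.1 FPKM in Nex_cKO and 129.4 FPKM in Nex_Ctrl (log2 change -0.49, limma adjusted p = 0.0147).

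Marker lists of several cell types and regions held calls in the Nex model, where 4.47% of all genes tested were called higher and 4.06% lower. A single call in a list of this length cannot be told from those shares. Of 11 layer 5 markers tested, 4 fell and none rose, and the sum of the list was 129.6, 120.5 and 112.8 FPKM in Nex_cKO and 141.5, 133.7 and 143.3 FPKM in Nex_Ctrl. Of 12 layer 6 and subplate markers, 4 fell and none rose, and their sum was 113.7, 123.8 and 111.1 FPKM in Nex_cKO and 159.5, 149.9 and 156.4 FPKM in Nex_Ctrl. Of 10 hippocampal markers tested, 5 rose and none fell, with a sum of 115.7, 142.3 and 130.0 FPKM in Nex_cKO and 83.2, 81.3 and 81.9 FPKM in Nex_Ctrl. Of 12 upper layer markers, 2 fell and 1 rose, and their sum was 324.9, 324.9 and 327.8 FPKM in Nex_cKO and 371.8, 361.2 and 375.4 FPKM in Nex_Ctrl. Of 12 oligodendrocyte lineage markers, 3 fell and 1 rose, with sums of 1538, 1513 and 1386 FPKM in Nex_cKO and 1872, 1743 and 1784 FPKM in Nex_Ctrl. Thalamic markers had 2 lower calls among 9 tested, endothelial markers 2 lower and 1 higher among 12, and markers of claustrum and amygdala 2 lower and 1 higher among 9. Microglial markers had 2 higher calls among 12, astrocyte markers 1 higher among 12, and mural and fibroblast markers 1 higher among 10. Striatal markers, which include Drd1 and Drd2, had 1 lower call among 9 tested and a sum that overlapped between groups, and Isl1 among them was at 0. Interneurons of the Htr3a type had 1 higher call among 10 tested, and parvalbumin and somatostatin interneurons 1 higher call among 11. The part of these markers in the receptor results was not tested.

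In the Camk2a model 26 members were tested and none passed, nor did any of the 12919 genes tested (0.0% called). At an unadjusted p under 0.05, 0 members lay higher (3.61% of all genes tested) and 5 lay lower (19.2%, against 3.35% of all genes tested). These 5 were Htr2a, Adra2a, Adra2c, Htr1b and Htr1a, of which all but Htr2a couple to Gi. Htr2a stood at 7.57 and 6.24 FPKM in Camk2a_cKO and 16.5 and 12.3 FPKM in Camk2a_Ctrl, from 755 and 588 recovered reads in Camk2a_cKO and 1595 and 1363 in Camk2a_Ctrl. Both cKO libraries lay below both controls (log2 change -0.96, SE 0.16, limma adjusted p = 0.370). Adra2a stood at 4.73 and 4.49 FPKM in Camk2a_cKO and 7.28 and 9.14 FPKM in Camk2a_Ctrl (log2 change -0.71, limma adjusted p = 0.390), on the same side of its controls as in the Nex model. Adra2c averaged 7.79 ± 0.682 FPKM in Camk2a_cKO and 10.6 ± 0.805 FPKM in Camk2a_Ctrl (SD, n = 2 each, log2 change -0.40, limma adjusted p = 0.539). Htr1b stood at 0.809 and 0.730 FPKM in Camk2a_cKO and 2.03 and 1.24 FPKM in Camk2a_Ctrl, and Htr1a at 1.74 and 3.70 FPKM in Camk2a_cKO and 5.06 and 4.44 FPKM in Camk2a_Ctrl. Htr1b reached the filter only through the Camk2a_Ctrl libraries, so its place among the members tested was set by its change. The changes of Htr1b and Htr1a were -0.56 and -0.68 on the log2 scale, with limma adjusted p of 0.650 and 0.672.

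The 14 serotonin receptor genes summed to 25.9 and 28.4 FPKM in Camk2a_cKO and 39.5 and 36.8 FPKM in Camk2a_Ctrl. Much of this gap was Htr2a, with means of 6.90 FPKM in Camk2a_cKO and 14.4 FPKM in Camk2a_Ctrl. Of the 8 serotonin receptor genes tested, 6 had a negative change. Over the 26 members tested, 17 changes were negative (65.4%, against 52.5% of all genes tested), and the groups did not overlap and lay lower in Camk2a_cKO for 9 (34.6%, against 21.1%). They lay higher without overlap for 2 members, Chrnb3 and Chrna7 (7.69%, against 16.2%). Chrnb3 stood at 1.48 and 1.05 FPKM in Camk2a_cKO and 1.02 and 0.357 FPKM in Camk2a_Ctrl, from 168 and 112 reads in Camk2a_cKO and 112 and 45 in Camk2a_Ctrl (log2 change 0.44, limma adjusted p = 0.793). The groups were separated only by the gap between 1.05 FPKM in Camk2a_cKO replicate 2 and 1.02 FPKM in Camk2a_Ctrl replicate 1. Htr1f and Htr7, the remaining genes among the 8 of smallest p, had log2 changes of -0.42 and -0.29 with overlap of the groups for Htr1f and none for Htr7. Of the members called in the Nex model, Adra1b stood at 5.58 and 9.04 FPKM in Camk2a_cKO and 8.44 and 9.92 FPKM in Camk2a_Ctrl, and Chrm4 at 18.1 and 25.4 FPKM in Camk2a_cKO and 22.8 and 18.7 FPKM in Camk2a_Ctrl, both with overlap. None of the pathway genes passed in this model. Htr2c was under the filter, at 0.416 and 0.695 FPKM in Camk2a_cKO and 1.19 and 0.591 FPKM in Camk2a_Ctrl. Chrna9, Chrng and Hrh4 had 0 recovered reads in all 4 libraries, which allows up to 3 reads in each.

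The change in the Nex model minus that in the Camk2a model was tested for 10403 genes, of which 39 were higher (0.375%) and 16 lower (0.154%). Of 25 members tested, 2 were higher, Htr2a and Chrnb3, and none lower. The joined locus of Chrnb2 was not in this test. For Htr2a the changes had opposite signs, and the difference was 1.56 on the log2 scale (SE 0.23, limma adjusted p = 0.0130). It was lost without Camk2a_Ctrl replicate 1 (limma adjusted p = 0.0899). For Chrnb3 both changes were positive, and the difference was 1.21 (SE 0.23, limma adjusted p = 0.0475). That call was lost in all 9 settings that left out a library other than Camk2a_Ctrl replicate 2 (limma adjusted p from 0.0560 to 0.183) and with a pseudocount of 0.1 (0.182). For Adra2a the difference was -0.23 (limma adjusted p = 0.650) and for Adra1b -0.60 (limma adjusted p = 0.382), neither past the threshold. Age, driver and table differed together between the models, and so did expression of the Y-linked gene Ddx3y, which stood at 10.98 to 12.35 FPKM in all 4 libraries of 3 months and at 0 in all libraries of 2.5 months but Nex_cKO replicate 3. Their parts in the differences cannot be told apart. Of these 25 members, 12 had a negative change in both (48.0%, against 32.8% of all genes), 3 a positive change in both and 10 opposite signs (40.0%, against 50.1%).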

How the data were processed

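RNA was sequenced from somatosensory cortex of 10 samples, with libraries made with an NEBNext Ultra II RNA kit per the labels' protocols. The authors deposited FPKM values in 2 tables, 1 per model. Cutadapt, STAR, DESeq2 and Cufflinks 2.2.1 are listed, with the builds mm10 and GRCm38 and no role or order, in the submitters' processing notes. Whether reads were counted by strand is not given in the sources used here. FPKM times the deposited gene length gave whole reads in the 3-month table (100% of values within 0.1 of a read). They were used only to describe depth.

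Where a name had several entries, the entry of highest mean was used, and entries without a name were not tested (4463 of 29610 in the 2.5-month table). Each table was fitted apart on log2(FPKM + 1) with limma 3.58.1 under R 4.3.3, using lmFit and trended eBayes moderation. The pseudocount understates the change of low genes. A gene was tested if its FPKM reached 1 in 3 or more libraries (Nex) or 2 or more (Camk2a). Two-sided p-values received a Benjamini-Hochberg adjustment across the whole fit, and "rose" and "fell" mean an adjusted p under 0.05. The difference of changes used a fit of all 4 groups on genes joined by name (21306 as written and 565 by RefSeq synonym). The fits were checked on simulated data. Alternatives were another pseudocount, filter, scaling and variance moderation, joined loci left out, a replicate block and each library left out, and, chosen after seeing the data, repeat entries summed. Named are members past the threshold, up to 8 of smallest p per model, the 2 most abundant of each family and pathway genes past the threshold, and other members as examples. Members and lists were chosen with earlier results of these data known. Some items are not reported here.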

Additional observations from a re-analysis of the deposited data

Results flagged for a closer look

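The change of Htr2a in the Nex model minus that in the Camk2a model was 1.56 on the log2 scale (SE 0.23, limma adjusted p = 0.0130), and it is given because the changes under the 2 drivers differed in a test of the difference itself. Its mean was 13.8 FPKM in Nex_cKO and 8.76 FPKM in Nex_Ctrl, and 6.90 FPKM in Camk2a_cKO and 14.4 FPKM in Camk2a_Ctrl, so it lay higher in 3 of 3 Nex_cKO libraries and lower in 2 of 2 Camk2a_cKO libraries than in all their controls. Over its alternatives the difference ranged from 1.36 to 1.76 with limma adjusted p from 0.00968 to 0.0899, the highest of them without Camk2a_Ctrl replicate 1.

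For Chrnb3 the same difference was 1.21 (SE 0.23, limma adjusted p = 0.0475), given for the same reason. Both changes were positive, with ratios of means of 6.11 (Nex_cKO over Nex_Ctrl) and 1.83 (Camk2a_cKO over Camk2a_Ctrl). Over its alternatives the difference ranged from 0.93 to 1.55 with limma adjusted p from 0.0130 to 0.183, so its call depended on which libraries were kept.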

How the results depend on the processing

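Of 445 values of single receptor genes recomputed under the alternatives, 410 kept their direction and their side of the threshold, 30 lost and 3 gained the call, and 2 changed sign. The changes of sign were both Chrm4 in the Camk2a model, -0.08 without Camk2a_Ctrl replicate 2 and -0.18 without Camk2a_cKO replicate 2, against 0.05 with all libraries and a range of -0.18 to 0.29 over single libraries left out. In the Nex model, the 3 higher and 3 lower members became 1 higher and 1 lower with a filter of FPKM 5, under which Chrnb3, Adra2a and Htr2c are no longer tested. Leaving out 1 library gave 1 to 3 higher and 2 to 4 lower. Deviations from group means correlated little between same-numbered replicates (-0.104 to 0.0167 for Nex and 0.0496 for Camk2a). This cannot exclude pairing of the samples, and with 2 samples per group the Camk2a correlations can differ only in sign. The replicate block gave 2 higher and 2 lower for Nex (Htr2c at a limma adjusted p of 0.0565 and Chrm4 at 0.0661) and 0 for Camk2a. Counts in the Camk2a model were 0 in all 14 alternatives. In the difference of changes, the 2 higher members became 1 with a pseudocount of 0.1 and 1 with a filter of FPKM 5, and 0 to 2 when 1 library was left out. No member was lower there in any of the 19 alternatives. For lost calls not traced to fewer tested genes or samples, the cause was not tested. Scaling moved the median of all genes by under 0.1 on the log2 scale. The depth behind the 2.5-month values is unknown, so changes of members under FPKM 1 could not be given an interval.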
